A study of Mus musculus with 6 samples.

Results

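The AMP-activated protein kinase Ampk is the best known kinase switched on by Lkb1, and its 7 subunit genes were followed here at the mRNA level in livers that had lost *Lkb1*. They are the catalytic genes *Prkaa1* and *Prkaa2*, the scaffold genes *Prkab1* and *Prkab2*, and the nucleotide-sensing genes *Prkag1*, *Prkag2* and *Prkag3*. A gene was taken as a member when the array annotation gave a probe set that one symbol alone, and all 7 were found among 19938 genes measured, each with 1 probe set. The arrays hold total liver RNA of 6 female mice, 1 array per mouse. The 3 Lkb1KOlivad mice (B253, B304 and B305; *Lkb1*fl/fl;*TTR-CreTam*) carry a tamoxifen-inducible Cre under the transthyretin promoter, which restricts the deletion to hepatocytes. The 3 control mice, WT in the labels (B256, B267 and B302), carry the same *Lkb1*fl/fl alleles without Cre. By the study's description both genotypes are littermates on an FVB/N background and were given tamoxifen as adults, while the labels of the arrays state no age, feeding state or treatment. The series is titled for Lkb1KOlivad mice and the paper's text describes fasted livers of that model for its arrays, but 1 supplementary legend names instead a model with deletion in the embryonic liver, and the sample labels give only the hepatocyte-specific deficiency. Other liver cells keep the *Lkb1* gene in both groups, and the RNA comes from all of them.

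Ampk is a heterotrimer. The alpha subunit carries the kinase domain and is active once Lkb1 or another upstream kinase has phosphorylated a threonine of its activation loop. The beta subunit joins the complex and binds glycogen, and the gamma subunit binds AMP, ADP or ATP in its CBS repeats and so reports the energy state of the cell. In liver, active Ampk phosphorylates enzymes of lipid synthesis and restrains anabolic pathways. Phosphorylation is not visible on an array, and the values below concern only the amount of each subunit's mRNA.

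*Stk11*, the gene of Lkb1 (probe set 10364683), was read first as a check of the labels. Its log2 RMA signals were 6.52, 6.42 and 6.48 in Lkb1KOlivad mice B253, B304 and B305, against 8.25, 8.13 and 7.96 in WT mice B256, B267 and B302. The groups lay far apart and differed by -1.64 on the log2 scale (Lkb1KOlivad minus WT, with a standard error of 0.12), for which limma gave an adjusted p = 0.00705. Without any 1 mouse other than WT B302 the adjusted p was 0.0501 to 0.139, at log2 differences of -1.66 to -1.57. With all mice the adjusted p was 0.566 in the methods' t-test. This test is the paper's general one for comparing groups, run here on each gene and adjusted over all genes. For its arrays the paper names BRB-ArrayTools, so 0.566 is not a result of the authors' array analysis. Liver identity was clear in both groups: the 9 measured hepatocyte markers had group means of 9.75 to 12.62 in Lkb1KOlivad livers and of 9.73 to 12.63 in WT livers. Of these markers 0 had an unadjusted p under 0.05 from limma (3.03% of all genes) or in the methods' t-test (3.1% of all genes).

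None of the 7 Ampk subunit genes differed between Lkb1KOlivad and WT livers beyond the spread between mice. With limma 0 of 7 reached an adjusted p under 0.05, where 0.00502% of all genes were (*Stk11* alone), and at an unadjusted p under 0.05 it was 0 of 7, where 3.03% of all genes passed. The methods' t-test gave 0 of 7 at an unadjusted p under 0.05, where 3.1% of all genes passed, and after adjustment it called 0% of all genes, *Stk11* included. In 0 of 7 did the 3 Lkb1KOlivad values lie all above the WT values (3.46% of all genes) and in 0 of 7 all below (3.7% of all genes). A log2 fold change below 0 was measured for 6 members, and *Prkab1* had one above 0, as did 51.58% of all genes. The median was -0.11 over the 7 members, against 0.0049 over all genes tested. Each member had adjusted p = 0.9997 from limma.

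**Figure D1:**
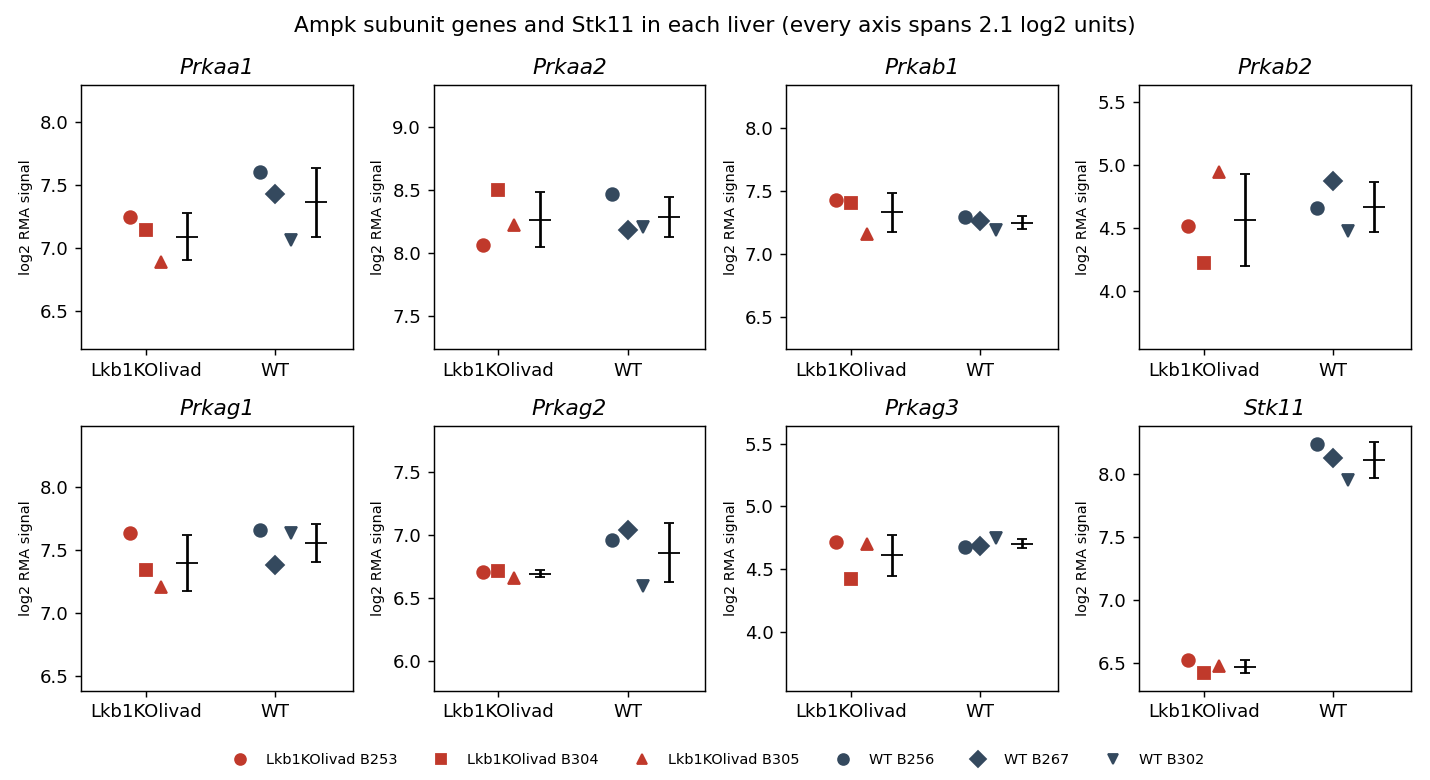
Log2 RMA signal of the 7 Ampk subunit genes and of *Stk11* in each liver, with 1 point per mouse and the mean and SD of each group (n = 3) in black. Every vertical axis spans the same number of log2 units, and the groups overlap for all 7 subunit genes while *Stk11* is split by genotype.

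*Prkaa1*, which encodes the alpha1 catalytic subunit (probe set 10422707; chr15:5143861-5181899, GRCm38.p6), had the log2 fold change farthest from 0 of the 7. Its log2 signals were 7.24, 7.14 and 6.89 in Lkb1KOlivad mice B253, B304 and B305, against 7.60, 7.43 and 7.06 in WT mice B256, B267 and B302. WT mouse B302 lay below 2 of the 3 mutant mice, and the other WT mice lay above all mutants. The group means were 7.09 ± 0.18 in Lkb1KOlivad livers and 7.36 ± 0.27 in WT livers (SD, n = 3 each). This is a log2 fold change of -0.27 with a standard error of 0.17, or a fold of 0.83 with a 95% interval of 0.64 to 1.075. By exact permutation over the mice (two-sided) p was 0.3, where 3 mice against 3 can reach no less than 0.1. Without WT mouse B302 the log2 fold change was -0.42, with an unadjusted p = 0.0227 and an adjusted p = 0.9994 from limma, while it was -0.15 without WT mouse B256 (unadjusted p = 0.395) and -0.17 without mutant B305 (unadjusted p = 0.377).

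The *Prkaa1* signal also separated the mice by their numbers. It was 7.24 to 7.60 in the 3 mice numbered in the 200s and 6.89 to 7.14 in those numbered in the 300s, and each series holds both genotypes. Of the 7 members only *Prkaa1* split the series without overlap, and *Prkag2* came close. Its signals were 6.705 to 7.035 in the 200s and 6.591 to 6.71 in the 300s. The share of all genes that split the series was not determined, so no weight is given to this count. Within the 200s (1 mutant, 2 controls) its log2 fold change was -0.27, within the 300s (2 mutants, 1 control) it was -0.05, and fitting the series as a block gave -0.16 (adjusted p = 0.973 from limma). B302 is the only control of the 300s, so in the fit without it genotype is partly mixed with the series. The labels do not say what the numbers stand for.

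*Prkaa2* encodes the other catalytic subunit, alpha2 (probe set 10514779; chr4:105029649-105109898). Its log2 signals were 8.07, 8.50 and 8.23 in Lkb1KOlivad mice B253, B304 and B305, against 8.47, 8.18 and 8.21 in WT mice B256, B267 and B302. The highest and the lowest of the 6 livers were both mutant, and the groups overlapped fully. For *Prkaa2* the log2 fold change was -0.02 (standard error 0.15, two-sided exact permutation test p = 1). The 95% interval of the fold ran from 0.78 to 1.24.

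*Prkab1* encodes beta1, the beta isoform that prevails in rodent liver (probe set 10533026; chr5:116013586-116024503). It was measured at 7.43, 7.41 and 7.16 in Lkb1KOlivad mice B253, B304 and B305, against 7.29, 7.27 and 7.19 in WT mice B256, B267 and B302. Mutants B253 and B304 lay above the controls, and mutant B305 lay below all of them. The log2 fold change of 0.08 (standard error 0.12) was smaller than the SD of the mutant group, 0.15, and the fold had an interval of 0.88 to 1.28 (two-sided exact permutation test, p = 0.4).

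*Prkab2*, the gene of the beta2 isoform that is prominent in skeletal muscle (probe set 10494574; chr3:97658211-97673812), was dim. Its log2 signals were 4.52, 4.23 and 4.95 in Lkb1KOlivad mice B253, B304 and B305, against 4.66, 4.88 and 4.48 in WT mice B256, B267 and B302. The lowest and the highest liver were again both mutant. The SD was 0.36 among the mutants and 0.20 among the controls, and the interval of the fold was the widest of the 7 by upper to lower limit, at 0.69 to 1.26 around 0.93 (two-sided exact permutation test, p = 0.8). Without mutant mouse B304 the log2 fold change was 0.06, against -0.11 with all mice.

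The gamma subunits hold the nucleotide sites. *Prkag1* encodes the widely expressed gamma1 (probe set 10432281; chr15:98812797-98831508). Its log2 signals were 7.64, 7.34 and 7.21 in Lkb1KOlivad mice B253, B304 and B305, against 7.66, 7.38 and 7.63 in WT mice B256, B267 and B302. Mutant mouse B253 stood level with the higher controls, while the other mutants lay below all 3 controls. Its log2 fold change was -0.16 (standard error 0.15, fold interval 0.71 to 1.13, two-sided exact permutation test p = 0.3). It was 0.12 within the mice of the 200s and -0.36 within those of the 300s.

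*Prkag2* encodes gamma2, whose variants cause a glycogen storage cardiomyopathy in humans (probe set 10528702; chr5:24862735-25106282). It was nearly constant among the mutants, with 6.71, 6.71 and 6.66 in Lkb1KOlivad mice B253, B304 and B305, against 6.96, 7.04 and 6.59 in WT mice B256, B267 and B302. As with *Prkaa1*, WT mouse B302 was the one control that did not lie above all mutants. For *Prkag2* the log2 fold change was -0.17 (standard error 0.14, fold interval 0.71 to 1.11, two-sided exact permutation test p = 0.4). Without WT mouse B302 it was -0.30, with an unadjusted p = 0.0325 and an adjusted p = 0.9994 from limma, and without WT mouse B267 it was -0.08 (unadjusted p = 0.603). *Prkaa1* and *Prkag2* were the 2 of 7 members under an unadjusted 0.05 without B302, where 3.74% of all genes passed in the same fit. Within the mice of the 300s, where B302 is the only control, *Prkag2* was at 0.09.

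*Prkag3* encodes gamma3, which is known from fast skeletal muscle (probe set 10355639; chr1:74738922-74749471). The log2 signals were 4.72, 4.43 and 4.70 in Lkb1KOlivad mice B253, B304 and B305, against 4.68, 4.69 and 4.75 in WT mice B256, B267 and B302. All but mutant mouse B304 lay within 0.1 of each other. The log2 fold change was -0.09 (standard error 0.12, two-sided exact permutation test p = 0.6), and 0.0026 without B304.

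**Figure D2:**
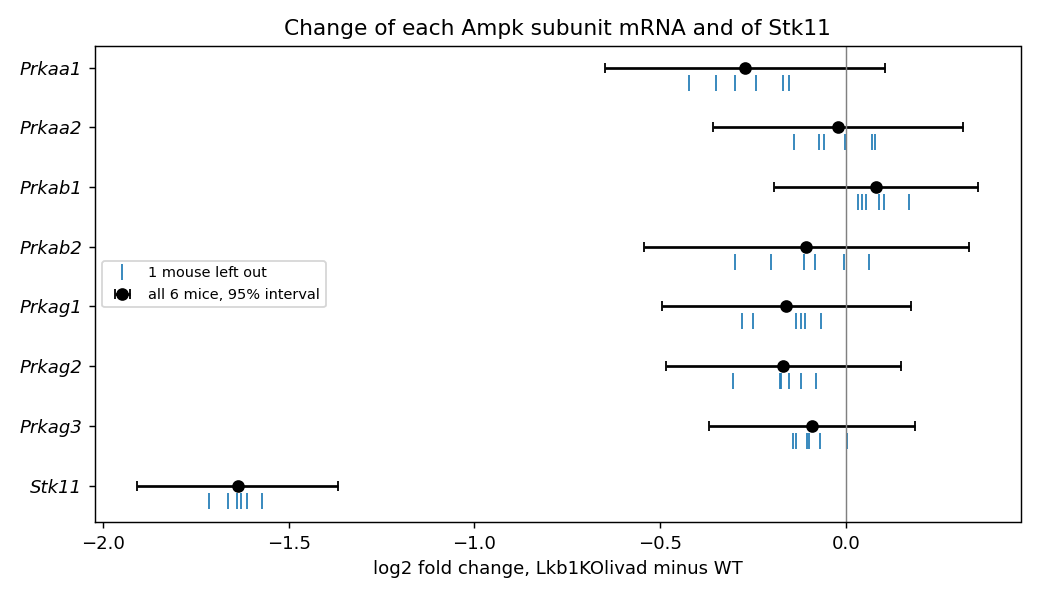
Log2 fold change (Lkb1KOlivad minus WT) of the 7 Ampk subunit genes and of *Stk11*, as points with the 95% interval from limma, and as ticks the values with 1 mouse left out. The 7 intervals all cross 0, from -0.65 to 0.10 for *Prkaa1* and from -0.19 to 0.36 for *Prkab1*, and that of *Stk11* runs from -1.91 to -1.37.

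The arrays carry no detection calls, so the signals were set beside those of 1027 olfactory receptor genes, most of which are silent outside the nose. These had a median of 3.27 and a 95th percentile of 4.80 as means over the 6 arrays. *Prkab2* at 4.62 and *Prkag3* at 4.66 lay below that percentile, with 8.08% and 7.5% of the olfactory receptor genes brighter. The other 5 members, at 6.78 to 8.28, were exceeded by at most 1 of the 1027 genes. Probe sets differ in brightness for the same amount of RNA, so these signals neither rank the subunits nor show that a dim one is absent. The 7 measured skeletal muscle markers had group means of 3.87 to 5.87 in Lkb1KOlivad livers and of 3.87 to 5.79 in WT livers. Of these markers 0 had an unadjusted p under 0.05 from limma (3.03% of all genes) or in the methods' t-test (3.1% of all genes).

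Each subunit type has isoforms that can replace one another in the complex, which raised the question whether one isoform changed relative to another. The gamma gene *Prkag3* was left out of the pairs. The difference *Prkaa2* minus *Prkaa1* was 0.82, 1.36 and 1.34 in Lkb1KOlivad mice B253, B304 and B305, against 0.87, 0.76 and 1.15 in WT mice B256, B267 and B302. Mutants B304 and B305 lay above all controls and mutant B253 lay among them. The genotypes differed in it by 0.25 on the log2 scale, with a 95% interval of -0.33 to 0.83 (two-sided exact permutation test, p = 0.3, adjusted p = 0.75 over the 3 pairs). For *Prkab2* minus *Prkab1* the difference between genotypes was -0.19, with an interval of -1.04 to 0.66 (exact permutation p = 0.5, adjusted p = 0.75). For *Prkag2* minus *Prkag1* it was -0.0081, with an interval of -0.65 to 0.64 (exact permutation p = 1, adjusted p = 1). With 3 mice against 3 the exact test can reach no p under 0.1, so no pair could have passed 0.05. The intervals leave room for an isoform shift of over 0.6 on the log2 scale in each pair.

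**Figure D3:**
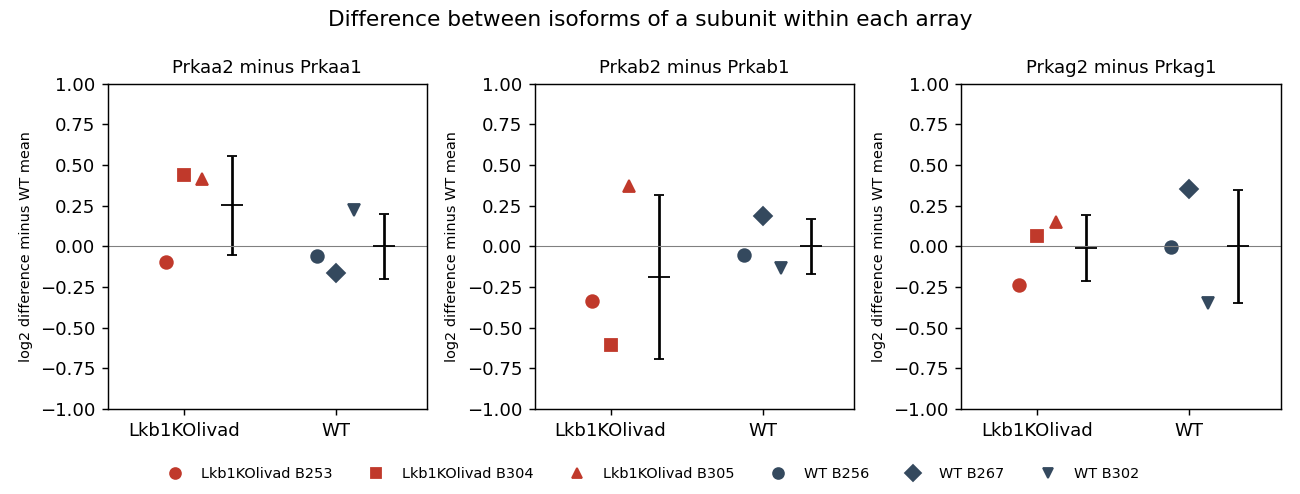
Log2 difference between the isoforms of each pair within each array, minus the mean difference of the WT mice, with 1 point per mouse and the mean and SD of each group (n = 3) in black. For the catalytic pair the Lkb1KOlivad mean lies 0.25 above WT, with mutant B253 among the controls, and in all 3 pairs the groups overlap.

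The genes around Ampk were described by lists. In bulk liver a lower signal can come from fewer cells of a type or from less RNA per cell, and these cannot be told apart. Of 7 measured genes of upstream kinases and Lkb1 partners, 1 passed at an adjusted p under 0.05 from limma, where 0.00502% of all genes did. This was *Stk11* itself, which was lower. *Camkk2*, the calcium-dependent kinase that phosphorylates the same threonine of Ampk as Lkb1, had log2 signals of 5.52, 5.96 and 5.67 in Lkb1KOlivad mice B253, B304 and B305, against 5.55, 5.28 and 5.32 in WT mice B256, B267 and B302. Only mutant B253 and control B256 were out of order. The value for *Camkk2* was 0.33 on the log2 scale (standard error 0.15), with an unadjusted p = 0.0515 and an adjusted p = 0.9997 from limma. *Map3k7*, the gene of Tak1, another kinase reported to act on Ampk, had a value of -0.20 (standard error 0.15). *Strada*, *Stradb*, *Cab39* and *Cab39l*, which encode the pseudokinase and scaffold partners of Lkb1, had log2 fold changes of -0.19 to 0.19, and each had adjusted p = 0.9997 from limma.

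The 12 Ampk-related kinases, which Lkb1 also activates, were all measured. As for the Ampk subunits, limma called 0 of 12 at an adjusted p under 0.05, where 0.00502% of all genes passed. At an unadjusted p under 0.05 it was 0 by limma (3.03% of all genes) and 0 by the methods' t-test (3.1% of all genes). Their median log2 fold change was 0.02, with a range of -0.12 to 0.22. The smallest p values were those of *Nuak2* (0.22, standard error 0.15), *Mark3* (0.19, standard error 0.15) and *Brsk2* (0.12, standard error 0.11). *Brsk2* was the 1 kinase of the list with all mutants above all controls, as in 3.46% of all genes. It was dim, with group means of 4.63 in Lkb1KOlivad and 4.51 in WT livers, below the olfactory receptor 95th percentile of 4.80. The salt-inducible kinases *Sik1*, *Sik2* and *Sik3*, chosen for naming after their values were seen, lay at 0.05, -0.01 and 0.05.

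Of 25 genes of Ampk substrates and effectors 24 were measured. With limma 0 passed at an adjusted p under 0.05 (0.00502% of all genes) and 0 at an unadjusted p under 0.05 (3.03% of all genes). The median was -0.04, with 8 values above 0 (51.58% of all genes) and 16 below. *Ppargc1a*, a coactivator of gluconeogenic and mitochondrial genes, had log2 signals of 8.24, 9.23 and 9.24 in Lkb1KOlivad mice B253, B304 and B305, against 8.33, 8.22 and 8.48 in WT mice B256, B267 and B302. Mutants B304 and B305 lay well above every control, and mutant B253 lay among the controls. The difference in *Ppargc1a* was 0.56 on the log2 scale (standard error 0.25, unadjusted p = 0.055 and adjusted p = 0.9997 from limma). *Tbc1d1*, a Rab GTPase-activating protein of glucose transporter traffic, was at 5.10, 5.15 and 5.11 in Lkb1KOlivad mice B253, B304 and B305, against 5.24, 5.50 and 5.38 in WT mice B256, B267 and B302. Here every mutant lay below every control, as in 3.7% of all genes, at a log2 difference of -0.25 (standard error 0.12) and an adjusted p = 0.9997 from limma. *Tbc1d1* was the 1 gene of the list under an unadjusted 0.05 in the methods' t-test, where 3.1% of all genes passed. *Lipe*, hormone-sensitive lipase, was at -0.24 with a standard error of 0.12. The acetyl-CoA carboxylases *Acaca* and *Acacb*, the classical liver substrates of Ampk, lay at -0.16 and -0.15 with standard errors of 0.26 and 0.25 (named after their values were seen).

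Ampk reads the ratio of adenine nucleotides, and 11 of 14 genes of adenine nucleotide handling were measured. With limma 0 of 11 passed at an adjusted p under 0.05 (0.00502% of all genes) and 0 at an unadjusted p under 0.05 (3.03% of all genes). The median was 0.01. The methods' t-test gave *Ampd1* alone at its unadjusted threshold, where 3.1% of all genes passed. *Ampd1* was dim, with group means of 3.804 in Lkb1KOlivad and 3.735 in WT livers, below the olfactory receptor 95th percentile of 4.80. Its log2 fold change was 0.07, with an unadjusted p = 0.519 from limma. Every mutant lay above every control for *Ampd1*, as in 3.46% of all genes. The genes with the smallest p from limma were *Adk*, which makes AMP from adenosine (0.20, standard error 0.12), *Nt5c2*, a cytosolic nucleotidase (0.29, standard error 0.23), and *Nt5e*, which turns extracellular AMP into adenosine (0.27, standard error 0.22).

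Folliculin, its partners Fnip1 and Fnip2, and the lysosomal Ragulator complex with Axin bind Ampk or bring it together with Lkb1. All 9 genes were measured, and 0 passed at an adjusted p under 0.05 from limma. At an unadjusted p under 0.05 from limma 1 was lower (0 in the methods' t-test), where 3.03% of all genes passed in either direction. This was *Fnip2*, with log2 signals of 6.11, 6.42 and 5.79 in Lkb1KOlivad mice B253, B304 and B305, against 6.52, 6.87 and 6.49 in WT mice B256, B267 and B302. All 3 mutants lay below all 3 controls, as in 3.7% of all genes. The log2 difference of *Fnip2* was -0.52 (standard error 0.18, unadjusted p = 0.0194 and adjusted p = 0.9997 from limma, two-sided exact permutation test p = 0.1). *Fnip1* was at -0.0023, *Flcn* at 0.26 (standard error 0.18) and *Lamtor5* at -0.25 (standard error 0.18). The difference between *Fnip2* and *Fnip1* was not tested.

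**Figure D4:**
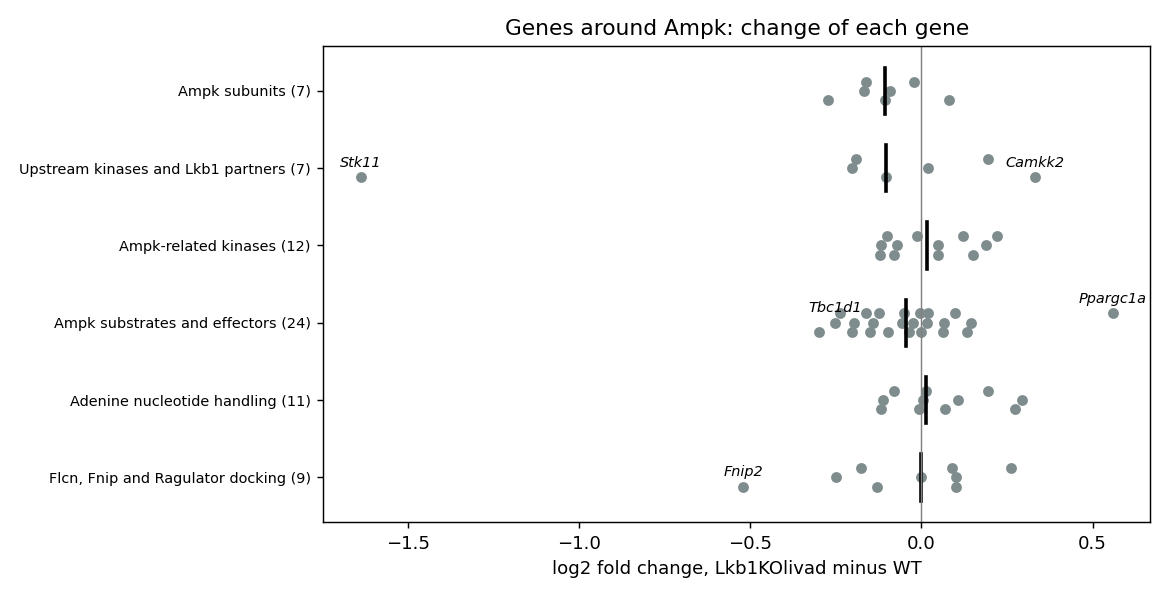
Log2 fold change (Lkb1KOlivad minus WT) of each measured gene in the Ampk subunits and the 5 lists around them, with the number of genes in brackets, 1 point per gene and a black bar at the median. Apart from *Stk11* at -1.64 the values lie between -0.52 (*Fnip2*) and 0.56 (*Ppargc1a*), and the medians between -0.11 and 0.02.

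Markers of the other cell types of liver were read on the same arrays, since these cells also express Ampk. The 8 stellate cell markers all had values below 0, where 51.58% of all genes lay above 0, and their median was -0.17. At an adjusted p under 0.05 from limma 0 were called. At an unadjusted p under 0.05 from limma 2 were lower, where 3.03% of all genes passed in either direction. The methods' t-test gave 1 at its unadjusted threshold, where 3.1% of all genes passed. Relative to the WT mean, the mean over these markers was -0.23, -0.31 and -0.12 in Lkb1KOlivad mice B253, B304 and B305, against 0.10, -0.01 and -0.08 in WT mice B256, B267 and B302. The 8 sinusoidal endothelial markers had a median of -0.17 and the 8 Kupffer cell markers one of -0.12, with 0 genes in either at an unadjusted p under 0.05 by limma or the methods' t-test. The mean over the Kupffer cell markers was 0.01, -0.25 and -0.10 in Lkb1KOlivad mice B253, B304 and B305, against 0.25, 0.19 and -0.44 in WT mice B256, B267 and B302. Control B302 was the lowest control for *Prkaa1*, *Prkag2*, *Prkab1* and *Prkab2*, but not for *Prkaa2*, *Prkag1* and *Prkag3*. In the mean of the Kupffer cell markers it was the lowest of the 6. It was also the lowest in the mean of the hepatocyte (-0.11), sinusoidal endothelial (-0.22), lymphocyte (-0.13) and neutrophil markers (-0.32). For the stellate cell, cholangiocyte and erythroid markers it was not the lowest, and for the skeletal muscle markers it was the highest (0.11). The weight that limma gave its array, 0.58, was the smallest of the 6, while the median of its array over genes, 5.278, was the highest. The median was -0.09 for 6 lymphocyte markers. Of these 1 was higher and 1 lower at the unadjusted threshold of limma (3.03% of all genes), and 1 passed that of the methods' t-test (3.1% of all genes). All mutants lay below all controls in 3 lymphocyte, 1 stellate cell and 1 cholangiocyte marker (3.7% of all genes). They lay above all controls in 1 lymphocyte marker (3.46% of all genes). Medians were 0.08 for 5 neutrophil markers and 0.08 for 4 cholangiocyte markers, and *Alas2*, the 1 erythroid marker measured, was at -0.27. The part of cell composition in the subunit values was not tested.

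Each subunit gene was also matched to the gene most like it over the 6 arrays, among the genes at or above the median signal. *Prkaa1* was followed most closely by *Arhgap18* (Pearson r = 0.983, Spearman rho = 0.943), *Prkaa2* by *Il22ra1* (r = 0.995, rho = 0.943) and *Prkab1* by *Zfp384* (r = 0.989, rho = 1). For *Prkab2* it was *Cops5* (r = 0.990, rho = 0.943), for *Prkag1* *Slc35c1* (r = 0.996, rho = 1) and for *Prkag2* *Lamc1* (r = 0.988, rho = 0.943). *Prkag3* came closest to *Stk17b* (r = 0.980, rho = 0.543), where the low rank correlation goes with the single low liver of mutant B304. *Prkab2* and *Prkag3* lay below the median signal and so could not be named as a nearest gene. None of the other members was the nearest gene of a subunit gene. With 6 arrays and 9968 or 9969 genes searched such values are frequent: between 37 and 119 genes passed r = 0.9 for each member, and no p is attached to the best of so many.

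The 7 genes are scattered over chromosomes 1, 3, 4, 5 and 15. In RefSeq promoter windows of 300 bases around annotated starts (GRCm38.p6), most of them lie in CpG-rich sequence. *Prkaa1* has 52 CpG dinucleotides in its window, a number reached by 0.575% of the 32851 windows of all genes, and *Prkaa2* has 35 (reached by 6.95%). *Prkab1* has 30 and *Prkab2* 23, against a median of 7 over all windows. *Prkag2* has 3 windows in this set with 25, 6 and 45, *Prkag1* has 16, and *Prkag3*, the muscle isoform, has 11 (reached by 41.4%). For *Prkag2* and *Prkag3* no window reaches the 5' end of the gene coordinates given above, so the set need not hold every start. The array does not tell the *Prkag2* starts apart, and the counts describe the sequence and not its use in these livers.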

How the data were processed

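Liver RNA of 3 Lkb1KOlivad and 3 WT mice was hybridized to Affymetrix mouse gene arrays. The deposited values are log2 signals that the authors made with RMA (background correction, normalization between arrays, summary into probe sets); Partek is named in the labels, and Expression Console and BRB-ArrayTools in the methods, with versions not given in the sources used here. RMA draws arrays together, so a shift shared by most genes cannot be seen. Of 35556 probe sets, 21789 had 1 symbol in an annotation of an earlier array generation than the methods name, 1621 had several and 12146 none. Of those with 1 symbol, 21698 were matched to RefSeq by gene identifier, and the RefSeq symbol was used. The brightest probe set was kept per gene (19938 genes). Groups were compared with limma 3.58.1 in R 4.3.3 (lmFit, eBayes, two-sided, Benjamini-Hochberg over all genes, threshold 0.05), with exact permutation tests for single genes and isoform pairs, and checked on simulated data. Intervals of isoform pairs use the pooled SD. Nothing was filtered, and p-values measure the spread between these mice. Array number limits the precision: the median 95% interval reached 0.32 to either side.

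Members and lists were chosen with earlier results of these data known. The text names the 7 subunit genes, *Stk11*, in each pathway list the genes under an unadjusted 0.05 and the 3 with the smallest p, and the most similar gene of each member; cell type markers are given by counts and medians. Alternatives were quantile normalization, median centring, dropping genes below the 25th percentile of mean signal, the mean of probe sets, an intensity trend, array weights, the methods' t-test, the mouse number series as a block or alone, and leaving out each mouse. Figures used matplotlib 3.10.9 in Python 3.11.15.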

Additional observations from a re-analysis of the deposited data

How the results depend on the processing

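The count of called subunit genes was 0 under all 14 alternatives fitted, and 2 (*Prkaa1* and *Prkag2*) passed an unadjusted 0.05 without WT mouse B302 alone. B302 is the only control of the 300s, so in that fit genotype is partly mixed with the mouse number series. The sign turned in some fits with 1 mouse left out, over which *Prkaa2* ranged from -0.14 to 0.0779 (log2), *Prkab2* from -0.30 to 0.0617, *Prkag3* from -0.14 to 0.0026, *Prkab2* minus *Prkab1* from -0.47 to 0.0185 and *Prkag2* minus *Prkag1* from -0.18 to 0.17. Within the mice of the 200s *Prkaa2* was at -0.26, *Prkag1* at 0.12 and *Prkag3* at 0.0324; within those of the 300s *Prkaa2* was at 0.16, *Prkab2* at 0.11, *Prkag1* at -0.36 and *Prkag2* at 0.0945. The causes were not tested. Of 139 values of members and isoform pairs under an alternative 127 kept their sign, and 12 did not: 7 with a mouse left out and 5 within a mouse number series. The call of *Stk11*, and with it the count of 1 among the upstream kinases, was 0 in the methods' t-test (adjusted p = 0.566) and 0 to 1 when a mouse was left out: it was lost without any mouse but B302 (adjusted p = 0.0501 to 0.139 from limma), at log2 fold changes of -1.66 to -1.57. In the other 4 lists the count was 0 throughout. No paired analysis was possible because the labels give the groups no shared replicate numbers.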
